A study of Homo sapiens with 74 samples.

Results

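The genes described here are 39 genes of glucose uptake, glycolysis and the response to low oxygen, listed by symbol among the 39037 genes of an RNA table from HEK293T cells, a human embryonic kidney line. Of them, 19 encode glucose transporters and glycolytic enzymes and 20 are other targets of the hypoxia-inducible factors (HIFs). The study transfected these cells transiently to express DamV133A, a variant of the bacterial adenine methylase Dam, either by itself or joined to the nuclear lamina protein lamin B1 (LMNB1), so that methylation marks the DNA it touches. The RNA libraries came in 4 groups of 2: DamV133A-LMNB1, DamV133A alone, m6A-Tracer (a reporter protein that binds methylated adenine) and untreated cells, whose transfection label is none. The labels give 1 shared treatment text for all samples, which describes Dam-LMNB1 with m6A-Tracer and 20 hours of 1 mM Shield-1, a stabilising ligand, so whether the untreated cells or each RNA group received Shield-1 is not stated. Nothing in them ties the replicates to separate cultures, and p-values therefore measure a spread between libraries that may be technical. The same line was mapped for lamina contact in 4 bulk DamID libraries (2 with DamV133A-LMNB1, 2 with DamV133A) and in 54 single cells, each of which also carried a form of m6A-Tracer.

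In cells with enough oxygen, prolyl hydroxylases mark the alpha subunits of HIF for destruction through the VHL protein. When oxygen is scarce the subunits persist, pair with ARNT and bind short hypoxia response elements near their targets, which include most steps from glucose uptake to lactate as well as genes of mitophagy, angiogenesis and collagen hydroxylation. Several glycolytic genes are also driven by other factors, such as MYC, so a high level of one of them alone does not show that HIF is active. In bulk RNA, a change in the RNA of each cell and a change in how many cells of a kind were present cannot be told apart.

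Promoters of the members often held the core letters of a hypoxia response element. RefSeq windows of 300 bases on GRCh38.p14, from 250 bases before to 50 after a gene start, were searched on both strands for ACGTG and GCGTG, which overlap where ACGTG is read on both strands of CACGTG. The table held 54 windows for 34 members. ACGTG occurred in 27 of them (50.0%), against 21.4% of all 35116 windows and 23.0% of the 22199 windows of protein-coding genes. GCGTG occurred in 48.1% of member windows, against 36.5% and 43.0%, and at least 1 of both cores in 75.9%, against 48.4% and 54.7%. By set, ACGTG was in 42.4% of 33 windows of transporters and glycolytic enzymes and in 61.9% of 21 windows of the other targets, and windows of 1 gene can overlap. These are matches of letters, not measured binding sites. The 5 windows printed next belong to the 4 members with a single window and the largest called falls with DamV133A against untreated cells, and to KDM3A, which was not called, for comparison. They lie at chr4:185396591-185396890 (ANKRD37, plus strand), chr3:4979187-4979486 (BHLHE40, plus), chr17:28576846-28577145 (ALDOC, minus), chr10:131981874-131982173 (BNIP3, minus) and chr2:86441121-86441420 (KDM3A, plus, the first of its 2 windows). Each is written 5′ to 3′ along the gene's strand, with both cores and their reverse complements in capitals.
ANKRD37: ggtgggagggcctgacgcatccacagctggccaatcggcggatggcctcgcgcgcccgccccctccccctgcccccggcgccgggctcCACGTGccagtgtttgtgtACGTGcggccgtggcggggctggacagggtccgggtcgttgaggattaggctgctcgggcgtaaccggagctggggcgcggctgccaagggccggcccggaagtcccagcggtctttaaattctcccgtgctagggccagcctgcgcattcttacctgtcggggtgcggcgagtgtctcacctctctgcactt
BHLHE40: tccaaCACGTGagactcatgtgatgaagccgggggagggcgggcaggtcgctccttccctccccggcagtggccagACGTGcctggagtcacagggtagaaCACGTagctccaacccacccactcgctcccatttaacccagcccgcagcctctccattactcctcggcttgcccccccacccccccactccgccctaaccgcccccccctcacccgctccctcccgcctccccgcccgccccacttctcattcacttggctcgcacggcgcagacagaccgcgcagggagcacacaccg
ALDOC: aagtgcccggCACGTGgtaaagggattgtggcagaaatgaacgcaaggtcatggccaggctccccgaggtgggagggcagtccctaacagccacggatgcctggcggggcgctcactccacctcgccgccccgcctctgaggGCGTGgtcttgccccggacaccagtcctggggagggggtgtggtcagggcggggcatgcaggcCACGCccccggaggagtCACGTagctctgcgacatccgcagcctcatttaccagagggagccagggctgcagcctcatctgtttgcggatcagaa
BNIP3: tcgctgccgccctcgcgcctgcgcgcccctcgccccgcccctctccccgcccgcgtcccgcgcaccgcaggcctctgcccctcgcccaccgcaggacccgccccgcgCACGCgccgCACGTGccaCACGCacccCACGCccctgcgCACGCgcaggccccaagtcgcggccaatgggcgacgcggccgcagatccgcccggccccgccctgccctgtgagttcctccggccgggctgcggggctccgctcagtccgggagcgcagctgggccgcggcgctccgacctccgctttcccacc
KDM3A: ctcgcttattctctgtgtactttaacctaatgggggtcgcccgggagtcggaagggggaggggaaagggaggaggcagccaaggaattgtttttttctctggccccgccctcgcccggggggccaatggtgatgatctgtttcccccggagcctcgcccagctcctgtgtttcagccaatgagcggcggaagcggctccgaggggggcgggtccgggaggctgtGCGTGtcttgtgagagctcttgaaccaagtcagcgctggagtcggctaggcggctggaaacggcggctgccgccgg
SLC2A3, HILPDA, VEGFA, BNIP3L and NDRG1 were not matched to a window. Whether the cores go with the falls in RNA was not tested, and the printed windows do not show it. PGAM1, EGLN3 and P4HA2 held neither core in their single window and were called lower with DamV133A against untreated cells. ANGPTL4 held ACGTG and was not called.

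The RNA libraries held 39690886 to 51455298 estimated counts, and 17740 genes passed the low-count filter, 38 of the members among them. CA9, which encodes a carbonic anhydrase of the cell surface, was left out by that filter, at 0.141 CPM or less in every library. CPM here are counts scaled to a common library size with TMM factors, which ran from 0.964 to 1.04. LMNB1, part of which the fusion adds, stood at 2548 and 2056 CPM in DamV133A-LMNB1 libraries, 249.6 and 253 CPM in DamV133A libraries, 251 and 257 CPM in m6A-Tracer libraries and 767 and 768 CPM in untreated libraries. The libraries labelled untreated thus held about 3 times the LMNB1 RNA of the other libraries without the fusion (log2 fold change of DamV133A over untreated -1.61 ± 0.09 SE, edgeR adjusted p = 6.92e-05), and every direction against untreated given here rests on those labels. The DamV133A-LMNB1 libraries stood further apart from each other, with a median absolute log2 difference of 0.165 over tested genes, than those of the other 3 groups, with 0.061 to 0.0629. All 8 genes taken as markers of HEK293T cells were detected, and 4, 4 and 3 of them, with NEFL, NEFM and VIM in each, were lower with DamV133A-LMNB1, DamV133A and m6A-Tracer than in untreated cells (list medians -0.24, -0.36 and -0.25). The part of that shift in the results on the members was not tested. Of 9 markers of other cell types, PTPRC, CD3E, PECAM1, CDH5, ALB, HBB and MYH7 stayed under 1 CPM in every library, and the fibroblast genes COL1A1 and COL3A1 stood at 24.5 to 29.8 CPM and 1.97 to 3.81 CPM.

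RNA of most members was lower in all 3 transfected groups than in untreated cells. The members were chosen with earlier results of these data known, so counts beside all genes describe the list and are no independent evidence. In 34 of 38 tested members both untreated libraries lay above the other 6 libraries, a pattern that 14.9% of all tested genes showed. Both untreated libraries lay below the other 6 in 0 members and in 16.7% of all genes. Relative to the untreated mean, the median member stood at a log2 level of -0.42 and -0.39 in the DamV133A-LMNB1 libraries, -0.64 and -0.61 in the DamV133A libraries and -0.45 and -0.49 in the m6A-Tracer libraries, while the median of all genes stayed between -0.01 and 0.01. DamV133A libraries were the lowest: both lay below the other 6 in 29 of 38 members, against 15.0% of all genes. That was so for 17 of 19 transporters and glycolytic enzymes and for 12 of 19 other targets.

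**Figure D1:**
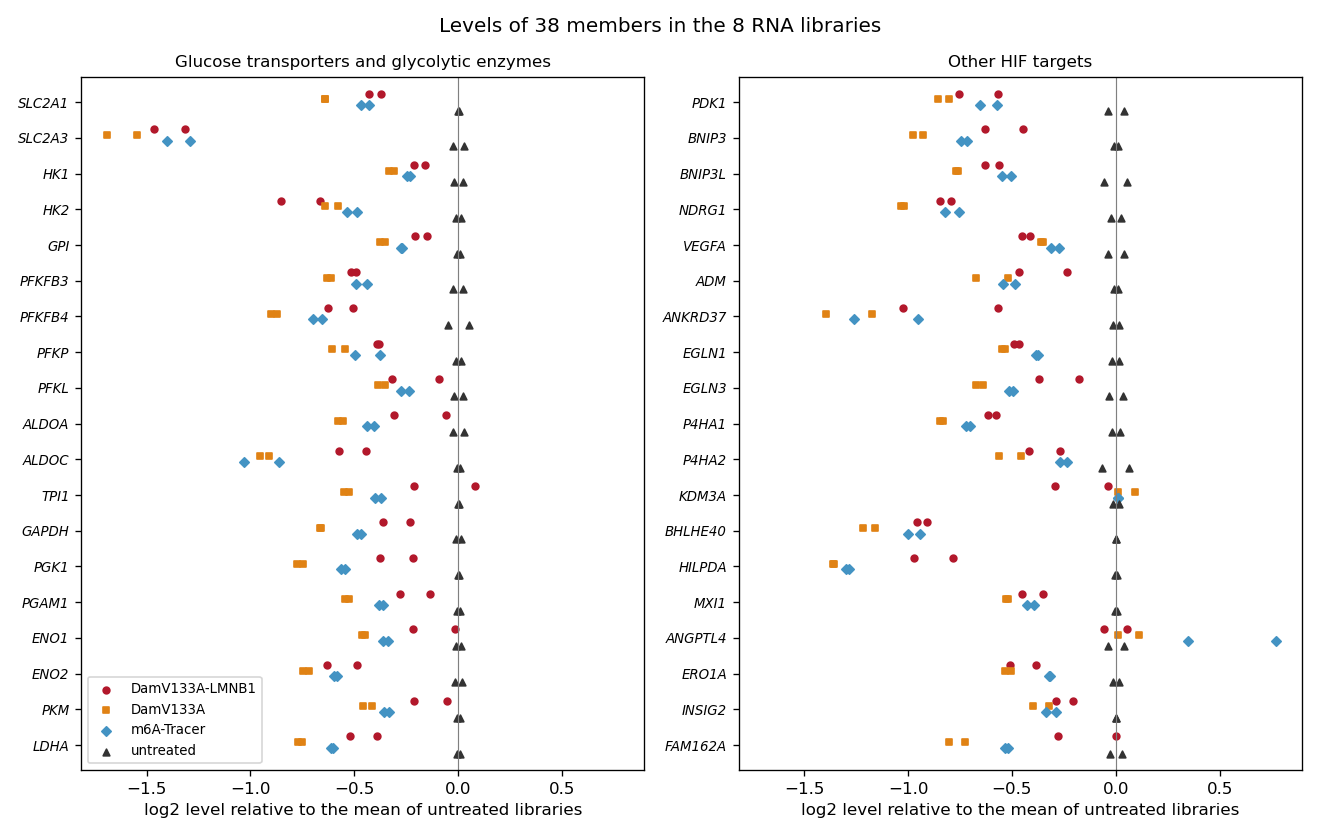
Log2 level of 38 members in each of the 8 RNA libraries (x axis) relative to the mean of the 2 untreated libraries, with a pseudocount of 0.5 CPM; each point is 1 library, coloured by group, and transporters and glycolytic enzymes are on the left, other HIF targets on the right. Both untreated libraries lie to the right of all others in 34 members, and SLC2A3, ANKRD37, HILPDA and BHLHE40 lie furthest left.

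With DamV133A alone, 36 of 38 members fell against untreated cells and 0 rose (edgeR's quasi-likelihood test, Benjamini-Hochberg adjusted p under 0.05; unadjusted and by DESeq2 also 36 lower and 0 higher), while 13.1% of all genes were called lower and 13.6% higher. Called were all 19 transporters and glycolytic enzymes (median log2 fold change -0.61) and 17 of 19 other targets (median -0.68 over the 19); the median of all genes was 0.01. At those medians the RNA stood at 65.4% and 62.6% of its untreated level. With m6A-Tracer, which carries no Dam, 34 members fell and 0 rose by edgeR (36 and 1 at an unadjusted p under 0.05, 35 and 0 by DESeq2), against 4.67% of all genes called lower and 7.62% higher. The medians were -0.45 for transporters and glycolytic enzymes (18 of 19 called), -0.53 for the other targets (16 of 19 called) and 0.01 for all genes. With DamV133A-LMNB1, 29 members fell and 0 rose by edgeR (33 and 0 unadjusted, 25 and 0 by DESeq2), against 7.56% of all genes called lower and 11.4% higher. Here 14 of 19 transporters and glycolytic enzymes were called, with a median of -0.30, and 15 of 19 other targets, with a median of -0.45, against 0.00 for all genes. The 3 comparisons share the untreated libraries, so their values are given side by side and not as repeats of each other.

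How many members passed depended on which libraries set the spread. With DamV133A the count stayed at 34 to 36 when any library was left out. With DamV133A-LMNB1 it was 17 without untreated library 1, 18 without untreated library 2, 30 lower and 1 higher without fusion library 1, and 10 when the 2 groups were fitted alone; those fits called 522, 590, 8415 and 244 of all genes, against 3361. With m6A-Tracer it was 17 and 18 without the first or second m6A-Tracer library and 18 and 16 without the first or second untreated library, where 308, 374, 310 and 311 of all genes were called, against 2181. Calls in the same direction under every alternative tried were made for 33 of the 36 members with DamV133A, 16 of the 34 with m6A-Tracer and 10 of the 29 with DamV133A-LMNB1. SLC2A3, PFKFB3, PDK1, BNIP3L, NDRG1, P4HA1, BHLHE40 and HILPDA were among these in all 3 comparisons. The share of all genes that held in this way was not counted, so these numbers describe the members only. With library totals in place of TMM, the median of all genes moved to 0.10 for DamV133A, and the genes called became 3470 higher and 1419 lower, against 2408 and 2322 with TMM. For m6A-Tracer they became 2001 higher and 501 lower, against 1352 and 829. The members called under library totals still numbered 36 with DamV133A, 33 with m6A-Tracer and 29 with DamV133A-LMNB1, all lower.

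Glucose enters these cells through facilitative transporters. SLC2A1 (GLUT1) stood at 106 and 110.5 CPM with DamV133A-LMNB1, 91.5 and 91.4 CPM with DamV133A, 106 and 103 CPM with m6A-Tracer and 143 and 143 CPM in untreated cells. SLC2A3 (GLUT3) had 12.9 and 11.6 CPM with DamV133A-LMNB1, 11.0 and 9.86 CPM with DamV133A, 13.2 and 12.2 CPM with m6A-Tracer and 32.3 and 33.5 CPM in untreated cells. The untreated libraries were above the rest for both, without overlap. SLC2A3 had the lowest fold changes of the members: -1.42 ± 0.09 with DamV133A-LMNB1, -1.66 ± 0.09 with DamV133A and -1.38 ± 0.09 with m6A-Tracer on the log2 scale (SE, n = 2 libraries a group; edgeR adjusted p = 0.000213, 6.92e-05 and 0.000276). Those are 37.3%, 31.5% and 38.4% of the untreated level.

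Hexokinases trap glucose as glucose phosphate. HK1 had 176 and 169 CPM with DamV133A-LMNB1, 156 and 159 CPM with DamV133A, 167 and 165 CPM with m6A-Tracer and 199.7 and 193 CPM in untreated cells. HK2, the inducible form, had 157 and 138 CPM with DamV133A-LMNB1, 159.6 and 167 CPM with DamV133A, 177 and 172 CPM with m6A-Tracer and 247 and 251 CPM in untreated cells. Both fell in all 3 groups. HK2 differed from its neighbours in the pathway in that its lowest libraries were those with the fusion, with a log2 fold change against untreated of -0.76 ± 0.07 with DamV133A-LMNB1 and -0.61 ± 0.07 with DamV133A (edgeR adjusted p = 0.00075 and 0.00106), but fusion and DamV133A were not called different (-0.15 ± 0.07, adjusted p = 0.153). GPI, the isomerase that follows, had 483 and 503 CPM with DamV133A-LMNB1, 437 and 430.3 CPM with DamV133A, 463 and 461 CPM with m6A-Tracer and 555 and 561 CPM in untreated cells.

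Phosphofructokinase catalyses the committed step, and the PFKFB enzymes set the level of its activator. PFKFB3 had 90.8 and 89.1 CPM with DamV133A-LMNB1, 82.4 and 83.4 CPM with DamV133A, 94.0 and 90.7 CPM with m6A-Tracer and 130.0 and 126 CPM in untreated cells. PFKFB4 had 29.1 and 31.7 CPM with DamV133A-LMNB1, 24.5 and 24.0 CPM with DamV133A, 28.5 and 27.7 CPM with m6A-Tracer and 43.7 and 46.9 CPM in untreated cells. Both fell in the 3 groups, PFKFB4 to 53.5% of its untreated level with DamV133A. PFKP, the platelet-type subunit, had 108 and 107 CPM with DamV133A-LMNB1, 95.9 and 92.0 CPM with DamV133A, 108 and 99.1 CPM with m6A-Tracer and 139 and 141 CPM in untreated cells, and fell in all 3. PFKL, the liver-type subunit, had 216 and 253 CPM with DamV133A-LMNB1, 211 and 206 CPM with DamV133A, 228 and 223 CPM with m6A-Tracer and 274 and 266 CPM in untreated cells. PFKL fell with DamV133A only by the test: its edgeR adjusted p was 0.0892 with DamV133A-LMNB1, 0.00871 with DamV133A and 0.0564 with m6A-Tracer, although no library of the 3 groups reached the untreated ones.

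In the lower pathway, ALDOA, TPI1, ENO1 and PKM were not called with the fusion, where they stood at 88.2%, 95.9%, 92.3% and 91.3% of their untreated levels. ALDOA, an aldolase, had 1687 and 2004 CPM with DamV133A-LMNB1, 1425 and 1401 CPM with DamV133A, 1577 and 1542 CPM with m6A-Tracer and 2129 and 2054 CPM in untreated cells. TPI1, triosephosphate isomerase, had 909.7 and 1113 CPM with DamV133A-LMNB1, 731 and 719 CPM with DamV133A, 816 and 798 CPM with m6A-Tracer and 1053 and 1056 CPM in untreated cells. ENO1, an enolase, had 2926 and 3368 CPM with DamV133A-LMNB1, 2498 and 2471 CPM with DamV133A, 2698 and 2651 CPM with m6A-Tracer and 3438 and 3382 CPM in untreated cells. In each of these, fusion library 2 was close to or above the untreated libraries and fusion library 1 well below them. PKM, pyruvate kinase, had 1701 and 1898 CPM with DamV133A-LMNB1, 1477 and 1431 CPM with DamV133A, 1565 and 1535 CPM with m6A-Tracer and 1978 and 1962 CPM in untreated cells. These 4 genes fell with DamV133A and with m6A-Tracer and were not called with the fusion, where the log2 fold changes were -0.18 ± 0.07 for ALDOA, -0.06 ± 0.08 for TPI1, -0.12 ± 0.06 for ENO1 and -0.13 ± 0.05 for PKM (edgeR adjusted p = 0.122, 0.643, 0.219 and 0.131). TPI1 changed direction with 1 library: without fusion library 1 it was called higher, at 0.09 (adjusted p = 0.00579).

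GAPDH, PGK1, PGAM1 and LDHA fell in all 3 groups. GAPDH, the dehydrogenase that makes NADH, had 1924 and 2109.7 CPM with DamV133A-LMNB1, 1566 and 1563 CPM with DamV133A, 1791 and 1766 CPM with m6A-Tracer and 2495 and 2458 CPM in untreated cells. PGK1, a kinase that makes ATP, had 691 and 770.3 CPM with DamV133A-LMNB1, 534 and 524 CPM with DamV133A, 616 and 607 CPM with m6A-Tracer and 899 and 895 CPM in untreated cells. LDHA, a subunit of the lactate dehydrogenase that regenerates NAD, had 1297 and 1419 CPM with DamV133A-LMNB1, 1103 and 1089.9 CPM with DamV133A, 1226 and 1218 CPM with m6A-Tracer and 1852 and 1869 CPM in untreated cells. In all 3 genes the groups kept 1 order without overlap, with DamV133A lowest, then m6A-Tracer, then DamV133A-LMNB1, then untreated. LDHA had log2 fold changes of -0.45 ± 0.05, -0.76 ± 0.05 and -0.61 ± 0.05 with DamV133A-LMNB1, DamV133A and m6A-Tracer (edgeR adjusted p = 0.00148, 0.000116 and 0.000577). PGAM1, a mutase, had 820.4 and 906 CPM with DamV133A-LMNB1, 691 and 681 CPM with DamV133A, 773 and 765 CPM with m6A-Tracer and 1002 and 989 CPM in untreated cells. Many of these enzymes have processed pseudogenes in the human genome, GAPDH, PGK1 and LDHA among them, and no source used here says how reads shared with such copies were counted.

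Aldolase and enolase each have a second member, better known from brain. ALDOC had 14.6 and 16.1 CPM with DamV133A-LMNB1, 11.5 and 11.2 CPM with DamV133A, 10.6 and 11.9 CPM with m6A-Tracer and 22.0 and 22.2 CPM in untreated cells. ENO2 had 45.0 and 49.8 CPM with DamV133A-LMNB1, 41.4 and 42.4 CPM with DamV133A, 46.0 and 46.5 CPM with m6A-Tracer and 69.2 and 70.7 CPM in untreated cells. Both fell in all 3 groups, ALDOC to 69.6% of its untreated level with DamV133A-LMNB1, 51.3% with DamV133A and 51.0% with m6A-Tracer.

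**Figure D2:**
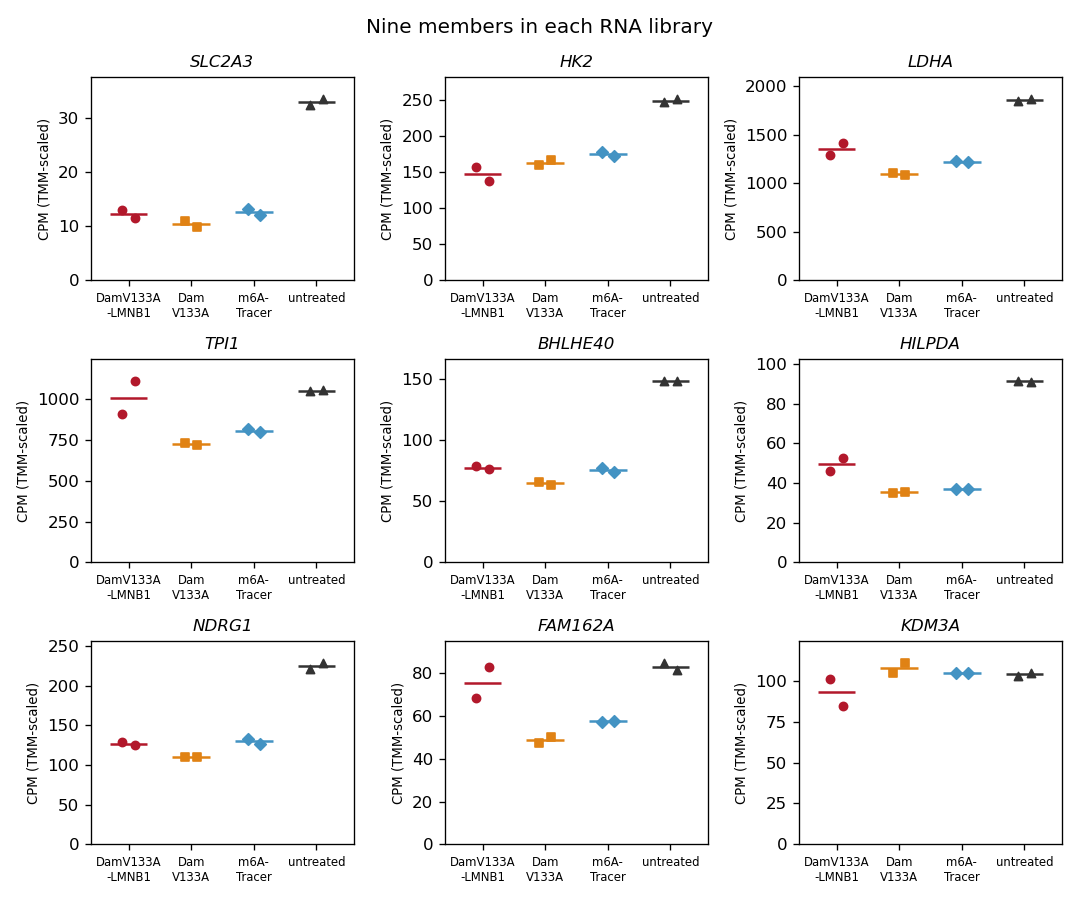
TMM-scaled CPM of 9 members (y axes, from 0) in each of the 8 RNA libraries by group; points are libraries and lines are means of 2. SLC2A3, BHLHE40 and HILPDA are far lower in the 3 transfected groups than in untreated cells. The DamV133A-LMNB1 libraries of TPI1 and FAM162A spread apart, and only library 2 reaches the untreated level. Those of KDM3A are at 101 and 84.7 CPM, below its untreated libraries.

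Among the 19 tested other targets, HILPDA, BHLHE40, NDRG1 and ANKRD37 had the largest falls in each of the 3 comparisons with untreated cells. HILPDA, a lipid droplet protein that inhibits lipolysis, had 46.3 and 52.7 CPM with DamV133A-LMNB1, 35.3 and 35.4 CPM with DamV133A, 37.2 and 36.9 CPM with m6A-Tracer and 91.5 and 91.0 CPM in untreated cells. BHLHE40, a transcriptional repressor, had 78.7 and 76.3 CPM with DamV133A-LMNB1, 66.1 and 63.5 CPM with DamV133A, 76.9 and 74.0 CPM with m6A-Tracer and 148 and 148 CPM in untreated cells. NDRG1, a stress-responsive gene, had 129 and 125 CPM with DamV133A-LMNB1, 111 and 109.5 CPM with DamV133A, 133 and 127 CPM with m6A-Tracer and 221 and 229 CPM in untreated cells. The untreated libraries were far above all 6 others in each. HILPDA had log2 fold changes of -0.88 ± 0.07, -1.37 ± 0.07 and -1.30 ± 0.07 with DamV133A-LMNB1, DamV133A and m6A-Tracer, BHLHE40 of -0.94 ± 0.05, -1.19 ± 0.05 and -0.98 ± 0.05, and NDRG1 of -0.82 ± 0.05, -1.03 ± 0.05 and -0.79 ± 0.05; the largest of these 9 edgeR adjusted p-values was 0.0004. ANKRD37, an ankyrin repeat gene of low level, had 4.62 and 6.53 CPM with DamV133A-LMNB1, 3.46 and 4.11 CPM with DamV133A, 3.84 and 4.87 CPM with m6A-Tracer and 9.80 and 10.0 CPM in untreated cells. It fell by 0.83 ± 0.19 with DamV133A-LMNB1, 1.38 ± 0.19 with DamV133A and 1.18 ± 0.19 with m6A-Tracer (log2, SE; edgeR adjusted p = 0.0203, 0.00223 and 0.0082).

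Genes that act on mitochondria also fell. PDK1, a kinase that keeps pyruvate out of the citric acid cycle, had 78.8 and 69.2 CPM with DamV133A-LMNB1, 64.5 and 66.9 CPM with DamV133A, 78.7 and 74.1 CPM with m6A-Tracer and 114 and 120.3 CPM in untreated cells. BNIP3, a mitophagy receptor, had 113 and 128 CPM with DamV133A-LMNB1, 88.6 and 91.6 CPM with DamV133A, 104 and 106 CPM with m6A-Tracer and 176 and 173 CPM in untreated cells. BNIP3L, its relative, had 60.7 and 58.0 CPM with DamV133A-LMNB1, 52.8 and 52.5 CPM with DamV133A, 61.3 and 63.2 CPM with m6A-Tracer and 86.4 and 93.4 CPM in untreated cells. All 3 fell in every transfected group, BNIP3 to 51.6% of its untreated level with DamV133A. FAM162A, a mitochondrial protein gene induced by low oxygen, had 68.2 and 82.9 CPM with DamV133A-LMNB1, 47.4 and 50.0 CPM with DamV133A, 57.0 and 57.7 CPM with m6A-Tracer and 84.7 and 81.2 CPM in untreated cells. The fusion and untreated libraries of FAM162A overlapped (log2 fold change -0.14 ± 0.09, edgeR adjusted p = 0.319), while it fell with DamV133A and with m6A-Tracer.

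Prolyl hydroxylases among the members fell too. EGLN1 (PHD2), the main enzyme that marks HIF alpha subunits, had 153 and 150.5 CPM with DamV133A-LMNB1, 146 and 145 CPM with DamV133A, 163 and 162 CPM with m6A-Tracer and 209 and 214 CPM in untreated cells. EGLN3 (PHD3) had 16.6 and 19.0 CPM with DamV133A-LMNB1, 13.7 and 13.4 CPM with DamV133A, 15.0 and 15.2 CPM with m6A-Tracer and 22.1 and 21.1 CPM in untreated cells. EGLN1 fell in all 3 groups. EGLN3 fell with DamV133A and m6A-Tracer, and with the fusion it had a log2 fold change of -0.28 ± 0.08 (edgeR adjusted p = 0.0533). EGLN2, another HIF prolyl hydroxylase gene but not a member, did not fall. It had 65.7 and 81.8 CPM with DamV133A-LMNB1, 62.2 and 58.0 CPM with DamV133A and 60.8 and 64.9 CPM with m6A-Tracer. All of these lay above its untreated libraries, at 55.5 and 56.6 CPM. P4HA1, a catalytic subunit of collagen prolyl hydroxylase, had 85.8 and 87.9 CPM with DamV133A-LMNB1, 73.0 and 73.7 CPM with DamV133A, 80.7 and 79.5 CPM with m6A-Tracer and 129.9 and 133 CPM in untreated cells, and fell in all 3. P4HA2, its relative, had 28.9 and 32.1 CPM with DamV133A-LMNB1, 26.1 and 28.1 CPM with DamV133A, 32.8 and 32.1 CPM with m6A-Tracer and 40.5 and 37.0 CPM in untreated cells. P4HA2 fell with DamV133A-LMNB1 and with DamV133A, and its edgeR adjusted p with m6A-Tracer was 0.0733.

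Secreted factors and regulators made up the rest. VEGFA, the main angiogenic growth factor, had 76.7 and 74.7 CPM with DamV133A-LMNB1, 79.5 and 80.2 CPM with DamV133A, 82.4 and 84.6 CPM with m6A-Tracer and 105 and 99.7 CPM in untreated cells. ADM, the vasodilator adrenomedullin, had 12.5 and 14.8 CPM with DamV133A-LMNB1, 10.8 and 12.0 CPM with DamV133A, 12.3 and 11.8 CPM with m6A-Tracer and 17.4 and 17.6 CPM in untreated cells. Both fell in all 3 groups, VEGFA to 74.0% of its untreated level with DamV133A-LMNB1, 78.0% with DamV133A and 81.6% with m6A-Tracer. MXI1, which antagonises MYC, had 60.3 and 56.3 CPM with DamV133A-LMNB1, 53.4 and 53.7 CPM with DamV133A, 57.2 and 58.5 CPM with m6A-Tracer and 77.4 and 76.8 CPM in untreated cells. ERO1A, an oxidase of the endoplasmic reticulum, had 84.5 and 77.4 CPM with DamV133A-LMNB1, 76.2 and 77.8 CPM with DamV133A, 88.6 and 88.4 CPM with m6A-Tracer and 109.5 and 112 CPM in untreated cells. INSIG2, which restrains sterol synthesis, had 21.7 and 22.9 CPM with DamV133A-LMNB1, 21.1 and 20.0 CPM with DamV133A, 21.6 and 20.9 CPM with m6A-Tracer and 26.5 and 26.6 CPM in untreated cells. These 3 also fell in every transfected group, to between 69.5% and 83.9% of their untreated levels.

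KDM3A and ANGPTL4 were the members that passed the filter and were called in none of the 3 comparisons. KDM3A, a histone demethylase, had 101 and 84.7 CPM with DamV133A-LMNB1, 104 and 111 CPM with DamV133A, 105 and 105 CPM with m6A-Tracer and 103 and 105 CPM in untreated cells. Its DamV133A-LMNB1 libraries lay below the untreated ones and the other groups overlapped them; its log2 fold changes were -0.16 ± 0.08, 0.05 ± 0.08 and 0.01 ± 0.08 (edgeR adjusted p = 0.212, 0.69 and 0.95). ANGPTL4, an inhibitor of lipoprotein lipase, had 0.139 and 0.189 CPM with DamV133A-LMNB1, 0.218 and 0.169 CPM with DamV133A, 0.347 and 0.635 CPM with m6A-Tracer and 0.183 and 0.147 CPM in untreated cells. Its m6A-Tracer libraries lay above the others, but at these low counts the log2 fold change of 1.56 ± 0.51 over untreated missed the threshold (edgeR adjusted p = 0.0826) and passed it when those 2 groups were fitted alone.

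DamV133A-LMNB1 was then set against DamV133A, which asks what lamin B1 adds to the methylase. Of 38 members 19 were higher with the fusion and 0 lower by edgeR (27 and 1 unadjusted, 19 and 0 by DESeq2), against 12.7% of all genes called higher and 7.55% lower. The median log2 fold change was 0.31 in transporters and glycolytic enzymes, 12 of 19 of which were called, and 0.17 in the other targets, 7 of 19 of which were called; it was -0.02 over all genes. The 12 were SLC2A1, GPI, PFKFB4, ALDOA, ALDOC, TPI1, GAPDH, PGK1, PGAM1, ENO1, PKM and LDHA, which hold every step from aldolase to lactate dehydrogenase. The 7 were BNIP3, NDRG1, EGLN3, P4HA1, BHLHE40, HILPDA and FAM162A. FAM162A rose most, to 155% of its DamV133A level (log2 0.63 ± 0.09, edgeR adjusted p = 0.018), followed by HILPDA (0.49 ± 0.07, adjusted p = 0.018), TPI1 (0.48 ± 0.08, adjusted p = 0.0189) and PGK1 (0.46 ± 0.06, adjusted p = 0.018). HK2, VEGFA, KDM3A and ANGPTL4 had fold changes below 0 and were not called.

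**Figure D3:**
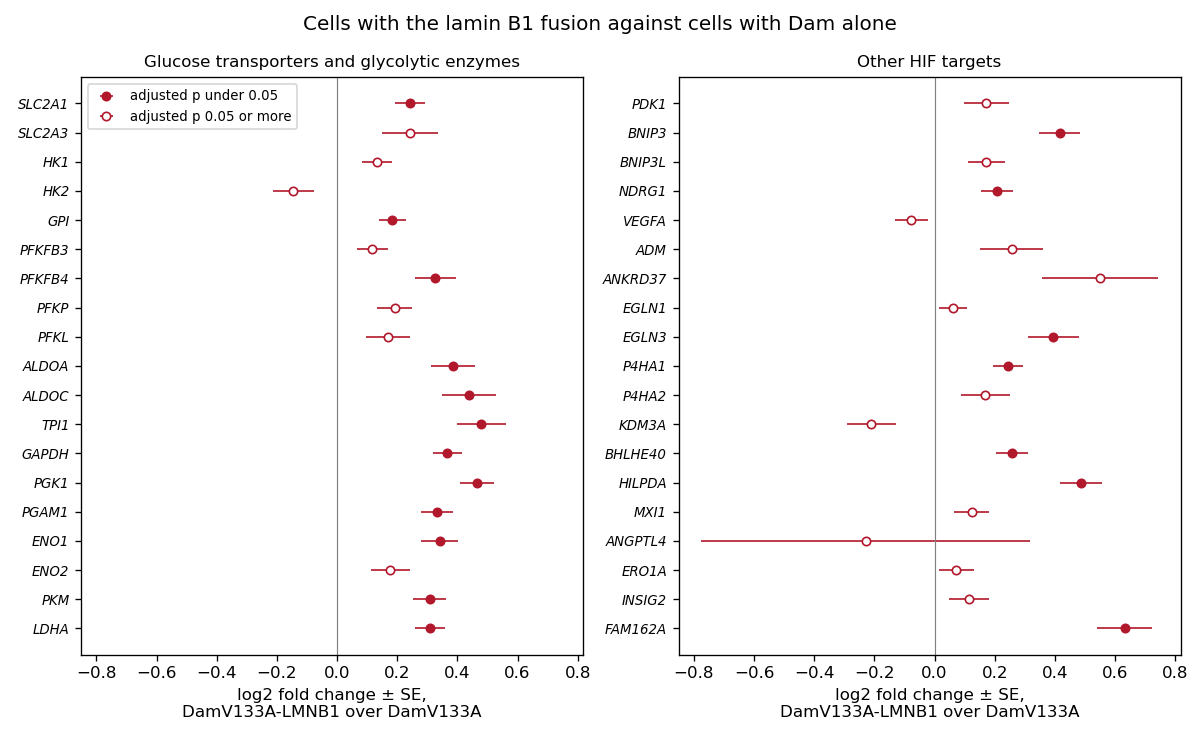
Log2 fold change ± SE (x axis) of DamV133A-LMNB1 over DamV133A for 38 members, 2 RNA libraries a group; filled points have an edgeR adjusted p under 0.05. The 12 filled transporters and enzymes and the 7 filled other targets all lie above 0, FAM162A furthest at 0.63.

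None of these 19 calls held under all alternatives. Leaving out any 1 of the DamV133A, m6A-Tracer or untreated libraries, 6 in all, gave 0 called members and 1 called gene over the whole table each. Without fusion library 1, 28 members were higher and 2 lower, and so were 4723 and 4233 of the 17740 genes. Without fusion library 2, 27 members were higher and 0 lower, against 2498 and 1868 of all genes. With the 2 groups fitted alone 0 members and 1 gene were called, and with library totals 16 were higher, while the genes called became 1458 higher and 2363 lower against 2258 and 1340 with TMM. The fusion libraries also differ in level, which bears on every comparison with the fusion: library 2 lay above library 1 in 14 of 19 transporters and glycolytic enzymes, 10 of 19 other targets and 49.7% of all genes.

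Against m6A-Tracer, 0 members were called with the fusion or with DamV133A alone. For DamV133A-LMNB1 over m6A-Tracer edgeR called 0.0564% of all genes higher and 0.175% lower, 17 members had an unadjusted p under 0.05, as did 5791 genes, and the DESeq2 test called 9 members, 8 of them higher. The median was 0.11 in transporters and glycolytic enzymes, 0.01 in other targets and -0.02 over all genes, and the lowest edgeR adjusted p, 0.0592, belonged to HILPDA (0.42 ± 0.07). With fusion library 1 left out 26 members were called, 21 higher and 5 lower, as were 4531 and 3847 of all genes. With fusion library 2 left out 12 were called, 11 of them higher, next to 1630 higher and 1127 lower of all genes. For DamV133A over m6A-Tracer edgeR called 0.0507% of all genes higher and 0.0733% lower, 20 members and 1588 genes had an unadjusted p under 0.05, and DESeq2 called 0 members. Here 36 of 38 members and 9326 of all 17740 tested genes had a negative fold change. The medians were -0.14 in transporters and glycolytic enzymes, -0.20 in other targets and -0.01 over all genes. Without fusion library 1 or 2, which are not part of this comparison but help set the spread, 25 and 27 members were lower and 0 higher, and with these 2 groups fitted alone 23 were lower. Over all genes these fits called 1046, 1200 and 977 lower and 1004, 874 and 1016 higher.

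Other genes of the pathway were read from lists, also chosen with earlier results of these data known, next to the members. Of 31 tested further HIF targets, 16, 18 and 15 fell with DamV133A-LMNB1, DamV133A and m6A-Tracer against untreated, and 1 rose in each. DDIT4, a stress-induced inhibitor of mTOR signalling, stood at 377 and 423 CPM, 276 and 278 CPM, and 304 and 312 CPM in those groups, against 573 and 565 CPM in untreated libraries. STC1, which encodes the hormone stanniocalcin, had log2 fold changes of -1.15, -1.24 and -1.05, LOX, which crosslinks collagen, of -0.71, -0.80 and -0.75, and PPFIA4, a liprin, of -1.08, -0.69 and -0.53, all called by edgeR. In the same order, 7, 6 and 5 of the 31 had a fold change above 0. JMJD6 was among those higher in all 3 groups, with 61.2 and 65.2 CPM with DamV133A-LMNB1, 55.4 and 53.1 CPM with DamV133A and 54.6 and 55.1 CPM with m6A-Tracer. It had 48.7 and 47.9 CPM in untreated libraries. The list medians were -0.29, -0.26 and -0.21, against 0.00, 0.01 and 0.01 over all genes.

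Genes of HIF control itself moved less. Of 12 tested, 3, 3 and 2 fell with DamV133A-LMNB1, DamV133A and m6A-Tracer against untreated, and 1, 0 and 0 rose, with medians of -0.11, 0.05 and 0.04. HIF1A, named here with its values known because it encodes the factor itself, had 100.5 and 81.7 CPM with DamV133A-LMNB1, 111 and 111 CPM with DamV133A, 101 and 105 CPM with m6A-Tracer and 91.9 and 96.0 CPM in untreated cells, and was not called in any of the 3. EPAS1, which encodes HIF2 alpha, had 16.7 and 13.7 CPM with DamV133A-LMNB1, 17.6 and 16.7 CPM with DamV133A, 16.3 and 16.7 CPM with m6A-Tracer and 20.6 and 25.4 CPM in untreated cells, and fell in all 3. CITED2, a HIF target that competes with HIF for coactivators, also fell in all 3, by 0.42, 0.72 and 0.57 on the log2 scale. HIF activity is largely set by protein stability, which RNA does not measure.

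Neighbouring pathways were read in the same way. Of 29 tested further genes of glycolysis and pyruvate use, 1, 6 and 4 fell with DamV133A-LMNB1, DamV133A and m6A-Tracer against untreated and 4, 2 and 1 rose (medians -0.02, -0.18 and -0.12). TIGAR, a phosphatase that slows glycolysis, was higher in all 3, with 30.7 and 35.6 CPM with DamV133A-LMNB1, 33.1 and 31.7 CPM with DamV133A, 32.9 and 30.7 CPM with m6A-Tracer and 21.1 and 20.8 CPM in untreated cells. SLC16A1, a lactate transporter, was lower in all 3, at -0.22 in each. Of 7 pentose phosphate genes 0, 5 and 2 fell and 1, 0 and 0 rose (medians 0.04, -0.32 and -0.20). Of 16 citric acid cycle genes 2, 5 and 2 fell and 2, 1 and 0 rose (medians 0.06, -0.13 and -0.10). With DamV133A-LMNB1 over DamV133A, 6 of 7 pentose phosphate and 8 of 16 citric acid cycle genes were higher and 0 lower, next to 6 higher and 2 lower of the 29, 4 higher and 2 lower of the 31 further HIF targets and 2 higher and 0 lower of the 12 genes of HIF control. The medians of these lists, in the same order, were 0.27, 0.21, 0.04, 0.04 and -0.15.

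**Figure D4:**
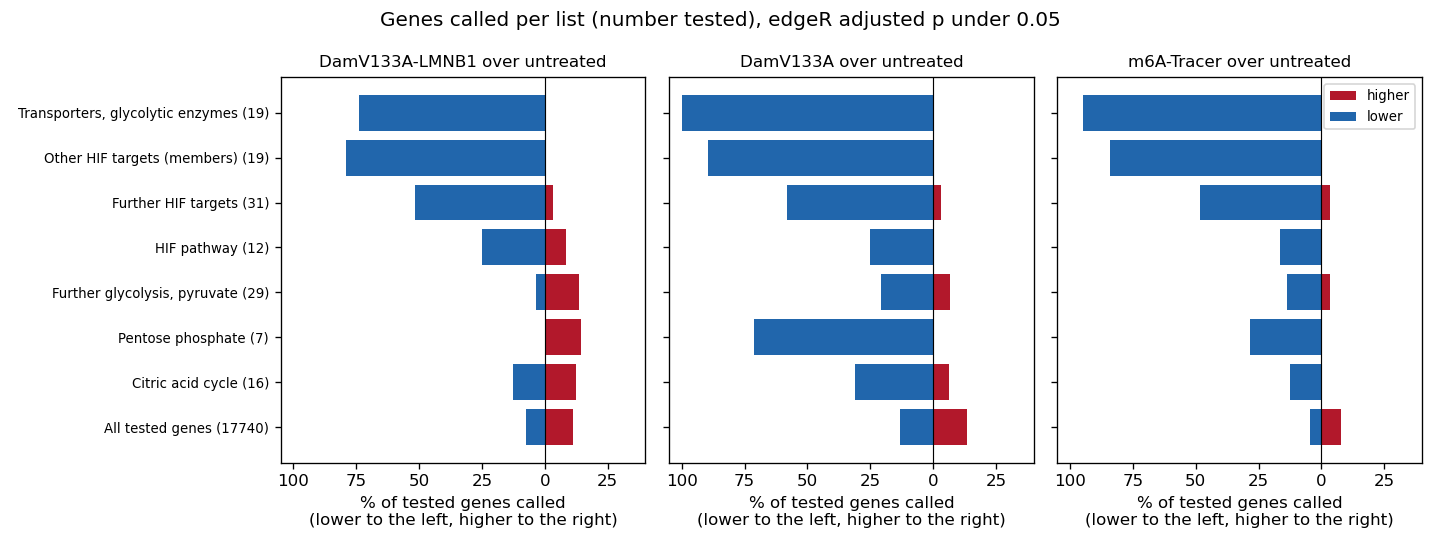
Share of tested genes called lower (left of 0) and higher (right of 0) against untreated cells, in percent, for the member sets, 5 further lists and all 17740 tested genes, by comparison (edgeR adjusted p under 0.05). The bars to the left are longest for both member sets and reach all 19 transporters and glycolytic enzymes with DamV133A; all genes stand at 4.67% to 13.1% lower.

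The last question was where the members lie relative to the lamina. The bulk map compares DamV133A-LMNB1 with DamV133A in 27944 bins of 100 kb (hg38), and each gene was placed in the bin of its midpoint by its RefSeq position on GRCh38.p14. A bin called higher is a lamina-associated domain (LAD) bin and a bin called lower an inter-LAD (iLAD) bin. By this edgeR test 34 of the 38 members with a bin, each in a bin of its own, were iLAD and 0 were LAD, against 66.7% and 11.3% of 19077 protein-coding genes (36.2% and 35.2% of all bins). No member bin had a fold change above 0, and the share of protein-coding genes with one was not counted. PGK1, on chromosome X, had no bin in this table. The median log2 fold change of member bins was -0.88, with a range of -1.24 to -0.07, against -0.76 over all placed genes and -0.06 over all bins. All 18 placed transporters and glycolytic enzymes were in iLAD bins.

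The bin of PKM on chromosome 15 (72200001 to 72300000) had 23.8 and 21.9 CPM with DamV133A-LMNB1 and 49.8 and 58.3 CPM with DamV133A, a log2 fold change of -1.24 ± 0.20 (edgeR adjusted p = 1.92e-05). PFKFB4 on chromosome 3 (48500001 to 48600000) had -1.21 ± 0.25 (adjusted p = 0.000242), within the error of PKM. The fusion libraries were below the DamV133A libraries without overlap in both. The 4 members outside iLAD bins were other HIF targets. BHLHE40 on chromosome 3 (4900001 to 5000000) had 47.5 and 31.8 CPM with DamV133A-LMNB1 and 38.8 and 59.0 CPM with DamV133A, which overlap (-0.30 ± 0.22, edgeR adjusted p = 0.225). ERO1A on chromosome 14 (52600001 to 52700000) had -0.07 ± 0.20, EGLN3 on the same chromosome (33900001 to 34000000) -0.28 ± 0.21 and ANKRD37 on chromosome 4 (185300001 to 185400000) -0.50 ± 0.24 (edgeR adjusted p = 0.754, 0.235 and 0.0732). With library totals, which moved the median of all bins to -0.32, ANKRD37, EGLN3 and BHLHE40 were also called lower and 37 members lay in iLAD bins. Without bulk DamV133A library 2, 22 members did, and EGLN1 was not called when placed by its gene start (-0.24).

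**Figure D5:**
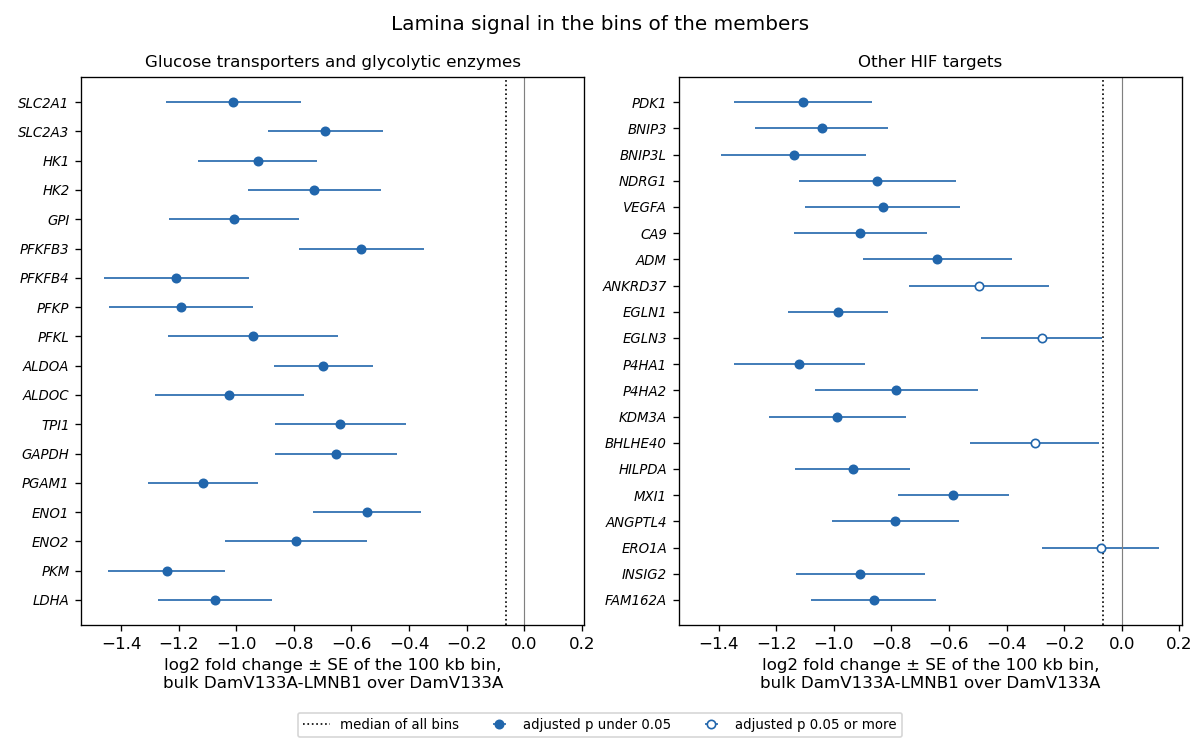
Log2 fold change ± SE (x axis) of bulk DamV133A-LMNB1 over DamV133A in the 100 kb bin of each of 38 members, 2 libraries a group; filled points have an edgeR adjusted p under 0.05 and the dotted line is the median of all bins, at -0.06. All points lie left of that line, from PKM at -1.24 to ERO1A at -0.07.

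Single cells with the fusions gave the same bins a low contact. Contact was scored where a cell's fragments in a bin reached the number expected from the summed bulk DamV133A libraries. The bulk values are coverage counts, a different measure from the unique fragments of the cells. In cells with DamV133A alone, which carries no lamin B1, this score does not report lamina contact. Over the 38 member bins, the mean share of cells in contact was 13.7% in the 15 cells with DamV133A-LMNB1 of batch 1. It was 15.2% in the 36 cells with DamV133A-tdTomato-LMNB1 of batch 2. The mean share that reached the score in the 3 cells with DamV133A alone, all of batch 1, was 54.4%. Over all bins the shares were 34.6%, 39.3% and 37.1%. With cells thinned to 10000 fragments, which leaves 14 cells in the first group, member bins had 13.5%, 17.0% and 43.9%, against 23.8%, 25.8% and 25.2% over all bins, so the gap with the fusions was smaller. Member bins were below the average bin with either fusion and above it with DamV133A alone at both depths. Cells are not replicates and each group counts as 1 sample, so no test was made. The 4 member bins outside iLADs had 23.3% and 30.6% with the fusions and 66.7% with DamV133A alone. The bin of BHLHE40 reached the score in 5 of 15 cells with DamV133A-LMNB1, 19 of 36 cells with DamV133A-tdTomato-LMNB1 and 3 of 3 cells with DamV133A alone. The exact Clopper-Pearson 95% intervals with the fusions were 11.8% to 61.6% and 35.5% to 69.6%. In the same order, the bin of PKM reached the score in 2, 1 and 1 cells, with intervals of 1.66% to 40.5%, 0.0703% to 14.5% and 0.84% to 90.6%. These intervals cover counting error only, and cells held 9526 to 348793 fragments.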

How the data were processed

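RNA-seq (8 libraries), bulk DamID (4 libraries) and single-cell DamID (54 cells) of HEK293T cells were used, out of 74 samples, and a table comparing Dam variants was not used. The authors deposited estimated counts per gene, whose gene IDs are of GRCh38.p13 per the file headers, and these were rounded to whole numbers. They also deposited counts per 100 kb bin of hg38, for each bulk library and each cell. Those of the bulk libraries are headed as coverage, and those of the cells are counts of unique fragments. Salmon, limma, DESeq2, bedtools 2.28, SAMtools 1.9, BWA 0.7.15-r1140 and Trimmomatic 0.39 are listed, without roles, in the submitters' processing notes; strand handling is not stated there. RNA libraries held 39690886 to 51455298 estimated counts and bulk DamID libraries 402171358 to 524019579 coverage counts.

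RNA was tested in 1 edgeR fit over 4 groups of 2 (edgeR 4.0.16, R 4.3.3; filterByExpr, TMM, quasi-likelihood test, Benjamini-Hochberg over 17740 genes, threshold 0.05). SE is the absolute log2 fold change over the root of F. Bins were tested the same way over 27944 bins, on the coverage counts of the bulk libraries. The steps were tested on simulated data with known changes, for DamV133A-LMNB1 over untreated RNA and for the bulk bins. The simulation gave every group the same spread, which the RNA groups did not have. It therefore does not show how unequal spread affects the calls. Cells were described without a test, and promoters searched as letters. Alternatives were DESeq2 1.42.0, its size factors, library totals, no low-count filter, the replicate number as a block, only the groups compared, and each library left out in turn; for bins the gene start, and for cells a stricter contact threshold and thinning. Cells, promoters and plots used SciPy 1.17.1, pandas 2.3.3, matplotlib 3.10.9 and NumPy 2.4.6 under Python 3.11.15.

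The members and the further lists (HIF targets, HIF control, glycolysis and pyruvate, pentose phosphate, citric acid cycle, HEK293T and other cell markers) were chosen with earlier results of these data known. Members called in at least 1 comparison are named with every library's value, and up to 4 called genes of each further list by size. The symbol GPI has 2 identifiers in the table, of which the one with nearly all the counts was used.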

Additional observations from a re-analysis of the deposited data

How the results depend on the processing

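Of 3189 alternative values of member fold changes, 2710 kept the side of the threshold, 298 lost and 180 gained a call. Direction was compared only where the main or the alternative value was called, and there 1 value reversed. It was TPI1 in DamV133A-LMNB1 over untreated, at -0.21 without fusion library 2 and 0.0904 without fusion library 1. Values called in neither fit counted as kept even where their sign changed. EGLN1 in DamV133A-LMNB1 over DamV133A, for example, ran from -0.02 to 0.08. Genes called moved most with the samples in the fit. With only the 2 groups compared they numbered 244, 8724 and 6877 for DamV133A-LMNB1, DamV133A and m6A-Tracer over untreated, 1 for DamV133A-LMNB1 over DamV133A, 1 for DamV133A-LMNB1 over m6A-Tracer and 1993 for DamV133A over m6A-Tracer, with 10, 36, 37, 0, 0 and 23 members called. With each library left out in turn, in the same order, genes called ran from 522 to 8415, 1389 to 8722, 308 to 6908, 1 to 8956, 2 to 8378 and 1 to 2074, and members called from 17 to 36, 34 to 36, 16 to 36, 0 to 30, 0 to 26 and 0 to 27; a lone library was assumed to vary like the other groups. Without a low-count filter 3507 genes were called for m6A-Tracer over untreated, 5437 for DamV133A-LMNB1 over DamV133A, 4175 for DamV133A-LMNB1 over m6A-Tracer (13 members) and 330 for DamV133A over m6A-Tracer. DESeq2 called 2198 genes and 9 members in DamV133A-LMNB1 over m6A-Tracer and 57 genes in DamV133A over m6A-Tracer, and library totals 88 genes in DamV133A-LMNB1 over m6A-Tracer. The main counts, in the first order, were 3361, 4730, 2181, 3598, 41 and 22 genes. The replicate numbers did not pair the RNA libraries (correlations of deviations -0.08 to 0.03). With the replicate block 2474, 3906, 1422, 2077, 9 and 1 genes were called in the first order. The members called were 24, 36, 34, 17, 0 and 0. Members in iLAD bins numbered 22 to 33 with a bulk library left out, and 0 were in LAD bins. Share of cells reaching the contact score over member bins was 4.91%, 4.31% and 23.7% for DamV133A-LMNB1, DamV133A-tdTomato-LMNB1 and DamV133A cells at a threshold of 2, against 18.6%, 18.9% and 13.8% over all bins, and 43.9% for DamV133A cells thinned to 10000 fragments. For DamV133A cells the score does not report lamina contact. The cause of these moves was not tested. Depth limits CA9, which had too few counts for a test, and ANGPTL4, at under 1 CPM in each library.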
